A study of Mus musculus with 18 samples.

Results

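The 9 genes described here, Snhg1, Snhg3, Snhg6, Snhg8, Snhg9, Snhg11, Snhg12, Gas5 and Zfas1, are known as noncoding hosts of small nucleolar RNAs (snoRNAs), although the annotation used here (GENCODE M21) types Snhg11 as protein-coding. They were picked by name from the 23420 genes of the count tables, and the list was drawn up after their differences between these same mice were known, so their values are a description and carry no test. All 9 were found, 8 under the current symbol and Zfas1 under its older symbol 1500012F01Rik, and all 9 were among the 15196 genes with enough reads to be tested. Retinas of wild-type BALB/cJ mice, an albino strain, were sequenced in 3 groups of 3 mice each. Naive mice received no light, and the authors describe no injection for them. Vehicle and TD139 mice were dark-adapted and exposed to white light of 15000 lux for 1 h, and retinas were taken 4 days after the light. TD139, a galectin-3 inhibitor, was injected into the peritoneum daily at 15 mg/kg in DMSO, and vehicle mice received DMSO alone, in both cases from the day before the light. As described, vehicle against naive therefore holds light, injection and DMSO together, TD139 and vehicle mice differ in the compound, and both comparisons share the vehicle mice. The animals were 8 to 10 weeks old and of both sexes, and the 2 sequencing runs of a mouse were counted as 1 sample.

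A snoRNA host gene is transcribed by RNA polymerase II, and its introns are trimmed to snoRNAs while its exons are spliced into a transcript of their own. Box C/D snoRNAs guide the 2′-O-methylation of ribosomal RNA and box H/ACA snoRNAs guide its pseudouridylation, each inside a particle with its own core proteins. The spliced transcripts of many hosts begin with a run of pyrimidines, as the mRNAs of ribosomal proteins do, and several are known to be translated and removed by nonsense-mediated decay. The libraries were made from polyadenylated RNA, so the counts of these genes measured the spliced host transcript, not the snoRNA.

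The annotation (GENCODE M21, build GRCm38) placed 31 separate snoRNA stretches inside the 9 genes, on the strand of the host. Gas5 held 9 of them, Snhg1 8, Snhg12 4, Zfas1 3, Snhg3 and Snhg11 2 each, and Snhg6, Snhg8 and Snhg9 1 each. The snoRNAs of Gas5, Snhg1, Snhg6 and Zfas1 that could be classed by their boxes were of the C/D type and those of Snhg3, Snhg8, Snhg9 and Snhg11 of the H/ACA type, while Snhg12 held both. Shown as GENCODE gives them, for the 3 hosts that were lowest under TD139 relative to vehicle, are the single snoRNAs of Snhg8 and Snhg9 and 1 of the 9 of Gas5, the one with reads of its own, together with 1 of each type from Snhg12. Capitals mark box C (TGATGA) and box D (CTGA) in Snord47 and Snord99, and the ACA near the 3′ end of the others, with the ANANNA match nearest the middle where one began within 15% of the length from the middle.
Snord47 (Gas5, chr1:161038082-161038158, plus strand): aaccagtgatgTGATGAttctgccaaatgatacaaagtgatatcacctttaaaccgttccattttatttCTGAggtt
Snora24 (Snhg8, chr3:123507937-123508066, minus strand): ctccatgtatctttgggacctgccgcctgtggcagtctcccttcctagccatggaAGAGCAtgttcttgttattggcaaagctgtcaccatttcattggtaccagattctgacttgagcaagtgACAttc
Snora78 (Snhg9, chr17:24719676-24719803, minus strand): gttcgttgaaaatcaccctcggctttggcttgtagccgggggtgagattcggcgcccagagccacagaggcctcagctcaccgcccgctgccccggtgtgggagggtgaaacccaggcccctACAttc
Snord99 (Snhg12, chr4:132310691-132310764, plus strand): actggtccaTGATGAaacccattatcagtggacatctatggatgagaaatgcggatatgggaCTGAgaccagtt
Snora61 (Snhg12, chr4:132310240-132310369, plus strand): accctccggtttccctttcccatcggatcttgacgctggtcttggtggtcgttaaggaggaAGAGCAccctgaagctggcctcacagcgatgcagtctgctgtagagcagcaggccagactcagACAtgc
Of the snoRNAs inside the 9 hosts, 11 had a row of their own in the count tables, with 0 to 382 counts summed over all 9 mice and at most 2.04 CPM in a mouse. CPM are counts per 1000000 reads assigned to genes, scaled by the trimmed mean of M values (TMM). Only 7 of these rows could be tested and none passed edgeR's threshold in any comparison. With so few reads, from libraries of polyadenylated RNA, these rows do not measure the level of the snoRNAs.

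Promoter windows of 250 bases before to 50 bases after the annotated start were on hand for 8 of the 9 genes from RefSeq (GRCm38.p6, 9 windows, since Gas5 had 2). TATAAA or TATATA began 45 to 20 bases before the start in Gas5, Snhg8 and Snhg12, and in 2.96% of all 32851 windows. A C followed by at least 4 further pyrimidines within 10 bases of the start was found in Gas5, Snhg3, Snhg8, Snhg9 and Snhg12, and in 29.0% of all windows. Both stood together in Gas5, Snhg8 and Snhg12 and in 0.986% of all windows. These runs were read on the strand of the gene, and they were looked for after the windows of the 9 genes had been seen. In Snhg3 and Snhg9 the letters TATAAA stood 23 and 35 bases into the transcribed part of the window, counted from 1 at the annotated start, and 12.5% of all windows held TATAAA or TATATA at some place. On either strand, GGGCGG was in the windows of 5 of the 8 genes and in 35.7% of all windows, CCGGAAG in 2 of 8 and 8.86%, and CACGTG in 1 of 8 and 7.15%. The 3 windows with both features are shown, with the TATA letters and the pyrimidine run in capitals.
Gas5 (chr1:161034916-161035215, plus strand): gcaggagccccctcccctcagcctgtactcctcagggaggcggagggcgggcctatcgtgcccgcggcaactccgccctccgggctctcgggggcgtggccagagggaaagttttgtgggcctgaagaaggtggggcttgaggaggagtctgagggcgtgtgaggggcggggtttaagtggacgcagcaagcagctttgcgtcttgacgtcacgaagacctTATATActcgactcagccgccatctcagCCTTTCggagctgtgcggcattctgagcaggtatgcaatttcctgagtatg
Snhg8 (chr3:123508287-123508586, minus strand): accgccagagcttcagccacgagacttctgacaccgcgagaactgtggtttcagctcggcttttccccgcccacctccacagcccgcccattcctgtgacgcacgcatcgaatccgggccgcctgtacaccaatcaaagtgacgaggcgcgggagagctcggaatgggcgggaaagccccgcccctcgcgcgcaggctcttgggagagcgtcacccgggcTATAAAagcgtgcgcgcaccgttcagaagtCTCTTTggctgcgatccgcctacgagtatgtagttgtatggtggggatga
Snhg12 (chr4:132308428-132308727, plus strand): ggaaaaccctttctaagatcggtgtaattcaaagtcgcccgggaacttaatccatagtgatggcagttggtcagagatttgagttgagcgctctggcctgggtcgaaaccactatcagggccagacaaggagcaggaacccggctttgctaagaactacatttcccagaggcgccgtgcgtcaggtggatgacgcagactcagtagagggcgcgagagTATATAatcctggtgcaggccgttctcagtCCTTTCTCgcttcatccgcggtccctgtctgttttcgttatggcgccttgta
The pyrimidine run was 6 bases long in Gas5 and Snhg8 and 8 in Snhg12. A match is a description of the letters and was not tested for binding or for transcription start.

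The 9 genes differed widely in level. Per kilobase of exon, with all annotated exons joined, Snhg11 was highest in naive retinas at 98.0 ± 2.54 CPM per kb (SD, n = 3). Snhg8 followed at 35.0 ± 7.05 and Gas5 at 31.6 ± 3.40 CPM per kb, 2 values that lay within each other's spread. Snhg12, Snhg9 and Snhg3 stood at 16.7 ± 2.88, 16.1 ± 3.77 and 15.1 ± 2.52 CPM per kb and did not differ beyond their spread. Zfas1, at 11.7 ± 1.18, and Snhg6, at 11.1 ± 0.772 CPM per kb, overlapped as well, and Snhg1 was lowest at 7.13 ± 0.511 CPM per kb. The order below Snhg11 rested on the length used. With the transcript that GENCODE links to RefSeq, Snhg12 was the second highest at 66.3 CPM per kb, Zfas1 reached 46.3 and Snhg1 35.0 CPM per kb, and Snhg9 was lowest at 16.1 CPM per kb. Snhg11 alone made up 75.3 ± 1.66% of the summed CPM of the 9 genes in naive, 74.3 ± 4.80% in vehicle and 81.9 ± 1.41% in TD139 retinas (SD, n = 3). Vehicle mouse 2 had the lowest share, 68.8%, and the other vehicle mice had 77.9 and 76.1%.

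**Figure D1:**
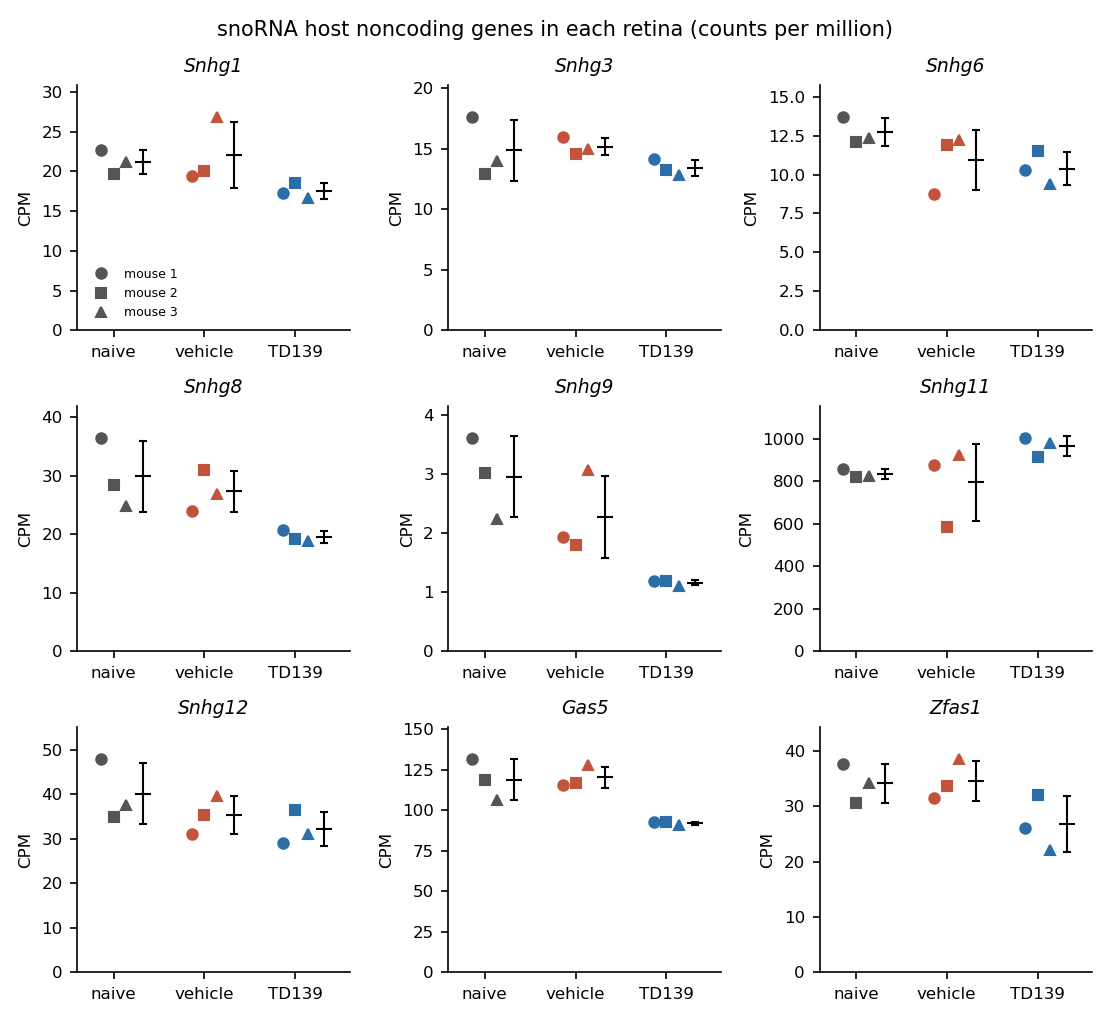
TMM-scaled CPM of the 9 host genes in each of 9 retinas, 1 panel a gene, each axis starting at 0. Symbols are single mice by number, and the black bar beside each group is its mean ± SD (n = 3). The TD139 mice lie below all vehicle mice for Snhg1, Snhg3, Snhg8, Snhg9 and Gas5, and Snhg11 in vehicle mouse 2 stands apart at 585 CPM.

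Sequencing depth was similar in all mice, with 26171887 to 30201517 reads assigned to genes, and 3 counts corresponded to 0.0993 to 0.115 CPM. Rod markers summed to 66437 to 76961 CPM in naive, 38859 to 54655 in vehicle and 55168 to 68215 in TD139 retinas, and microglia and macrophage markers to 68.7 to 73.4, 296 to 569 and 49.7 to 185 CPM. In whole retina, fewer cells of a type and less RNA per cell cannot be told apart. Lens markers summed to 6896 CPM in vehicle mouse 2 and to 0.174 to 277 CPM in the other 8 mice, so results that rest on that mouse are given with and without it. The share of reads that the counting assigned to no feature was 19.1 to 19.9% in naive, 16.5 to 19.4% in vehicle and 21.3 to 22.8% in TD139 retinas. Whether these reads lay between genes or inside them is not known from the counts.

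Between vehicle and naive retinas, 4 days after light, the host genes lay close together. The groups overlapped for all 9 genes, while 33.3% of all tested genes did not overlap. Of the 9, 4 had a log2 fold change above 0 and 5 below, the median was -0.07 and the range -0.38 to 0.06, against a median of 0.00 over all tested genes. Without vehicle mouse 2 the median of the 9 was 0.03, with 4 below 0. None of the 9 passed an adjusted p of 0.05 in edgeR's quasi-likelihood test with Benjamini-Hochberg adjustment over all tested genes, nor with DESeq2 or limma voom. At an unadjusted p under 0.05 the counts were 0 with edgeR, 0 with DESeq2 and 1 with limma voom. Of all tested genes, edgeR called 4.91% higher and 2.89% lower in vehicle than in naive retinas.

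In TD139 retinas 8 of the 9 host genes were lower than in vehicle retinas and Snhg11 was higher. The median log2 fold change was -0.34, with a range of -0.96 to 0.28, against -0.02 over all tested genes. Every TD139 mouse lay below every vehicle mouse for 5 of the 9 (Snhg1, Snhg3, Snhg8, Snhg9 and Gas5), as it did for 25.4% of all tested genes. Gas5, Snhg8 and Snhg9 were below the adjusted threshold and no host gene was called higher, while edgeR called 16.2% of all tested genes lower and 17.2% higher. The selection of the 9 genes used this contrast, so nothing is read from these counts. Calls over all genes were split differently by other scalings, with 2617 higher and 2455 lower by TMM, 1942 and 3040 by library size alone, and 2323 and 1264 with length and GC content of transcripts corrected for.

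Against naive retinas the TD139 retinas were again lower for 8 of the 9 genes, with a median of -0.32 and a range of -1.35 to 0.21. Every TD139 mouse lay below every naive mouse for 5 of the 9 (Snhg1, Snhg6, Snhg8, Snhg9 and Gas5), as for 16.8% of all tested genes. Gas5, Snhg8 and Snhg9 were called lower and none higher, beside 2.38% of all tested genes called lower and 2.72% higher. This comparison differs from the one with vehicle in the light and, as described, the injection as well as the compound. The sum of the 8 genes other than Snhg11, a grouping made after the values were seen, was 312, 260 and 253 CPM in the naive mice, 249, 265 and 290 CPM in the vehicle mice and 211, 225 and 203 CPM in the TD139 mice. All 3 TD139 sums lay below the 6 others. Since the grouping leaves out the only gene that was higher, nothing is read from this. With Snhg11, the sums of all 9 averaged 1110 ± 53.6 CPM in naive, 1063 ± 189 in vehicle and 1180 ± 38.1 in TD139 mice (SD, n = 3).

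**Figure D2:**
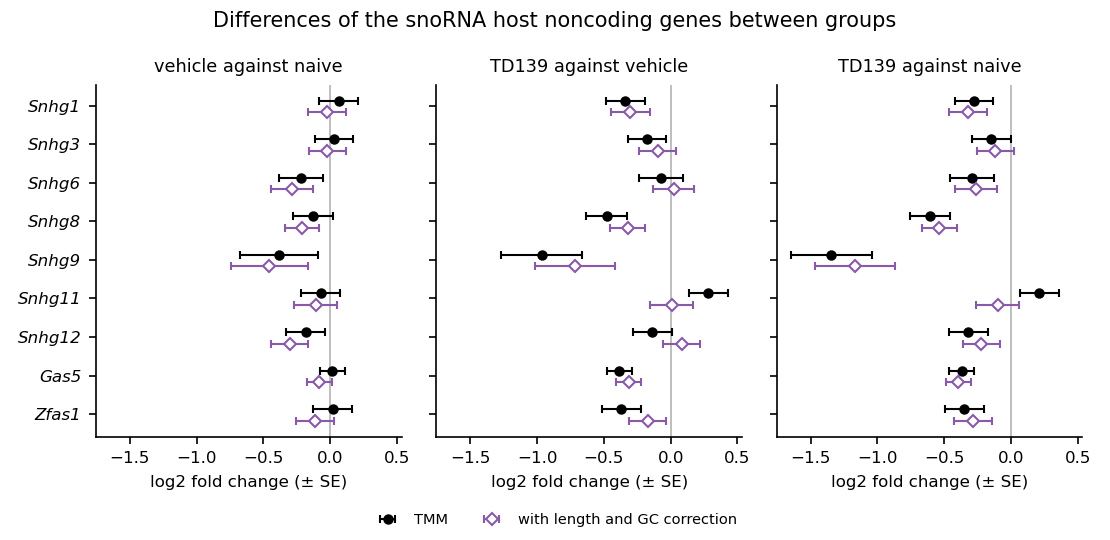
Log2 fold change of each host gene in the 3 comparisons, with its standard error from the fit over 9 mice, by TMM scaling (filled circles) and with transcript length and GC content corrected for (open diamonds). In TD139 against vehicle, Snhg9 lies farthest below 0 and Snhg11 alone lies above 0 by TMM, and with the correction Snhg11, Snhg12 and Snhg6 lie near 0.

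Gas5, growth arrest-specific 5, is a C/D host whose spliced RNA is known to accumulate when growth slows and to bind the glucocorticoid receptor (chromosome 1, 161034422 to 161038539, plus strand, Ensembl ENSMUSG00000053332.13). It had 132, 119 and 106 CPM in the naive mice, 116, 117 and 128 CPM in the vehicle mice and 92.7, 92.5 and 90.8 CPM in the TD139 mice. The TD139 mice had an SD of 1.03 CPM and lay below all 6 others. The log2 difference was -0.39 ± 0.09 (SE) against vehicle, or -23.5%, and -0.37 ± 0.09 against naive, or -22.7%. Between vehicle and naive it was 0.02 ± 0.09.

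Snhg1, the host of a series of C/D snoRNAs that includes Snord22 (chromosome 19, 8723475 to 8726443, plus strand), had 22.7, 19.7 and 21.1 CPM in naive, 19.4, 20.1 and 26.9 CPM in vehicle and 17.3, 18.6 and 16.6 CPM in TD139 mice. Vehicle mouse 3 stood above the other 8 mice. The log2 difference between TD139 and vehicle was -0.34 ± 0.14 (SE), and -0.18 without vehicle mouse 3. Zfas1, which overlaps Znfx1 on the opposite strand and hosts Snord12 (chromosome 2, 167062934 to 167065862, plus strand), had 37.6, 30.6 and 34.2 CPM in naive, 31.5, 33.6 and 38.6 CPM in vehicle and 26.1, 32.1 and 22.1 CPM in TD139 mice. TD139 mouse 2 reached into the range of the vehicle mice and the other TD139 mice did not. The log2 difference between TD139 and vehicle was -0.37 ± 0.15 (SE), -0.52 without TD139 mouse 2 and -0.25 without TD139 mouse 3. Snhg6, the host of Snord87 (chromosome 1, 9941959 to 9944118, minus strand), had 13.7, 12.1 and 12.4 CPM in naive, 8.72, 11.9 and 12.2 CPM in vehicle and 10.3, 11.5 and 9.37 CPM in TD139 mice. Vehicle and TD139 overlapped fully and differed by -0.07 ± 0.16 on the log2 scale, and they stood at -0.22 ± 0.16 and -0.29 ± 0.16 against naive. The value for vehicle rested on vehicle mouse 1, the lowest of all 9, and was -0.07 without it. Without the same mouse TD139 stood at -0.21 against vehicle.

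Among the H/ACA hosts, Snhg9 showed the largest difference. It is a short gene with 183 exonic bases (chromosome 17, 24719531 to 24719965, minus strand), hosts Snora78 and had the fewest reads of the 9. It had 94, 80 and 61 counts in the naive mice, 54, 51 and 91 in the vehicle mice and 32, 34 and 28 in the TD139 mice. In CPM these were 3.61, 3.01 and 2.24, then 1.93, 1.80 and 3.06, then 1.19, 1.18 and 1.11. The TD139 mice lay below all others, and vehicle mouse 3 lay among the naive mice. The log2 difference was -0.96 ± 0.30 (SE) against vehicle, or -48.7%, and -1.35 ± 0.30 against naive, or -60.7%, and vehicle lay between the other groups at -0.38 ± 0.29 against naive. Counts under 100 leave this gene with the widest error of the 9.

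Snhg8, the host of Snora24 (chromosome 3, 123507552 to 123508404, minus strand), had 36.5, 28.3 and 24.8 CPM in naive, 24.0, 31.0 and 26.9 CPM in vehicle and 20.8, 19.2 and 18.8 CPM in TD139 mice. All TD139 mice lay below the 6 others, by a log2 difference of -0.48 ± 0.15 (SE) from vehicle and -0.61 ± 0.15 from naive. Snhg3, which hosts the U17 snoRNAs Snora73a and Snora73b (chromosome 4, 132348014 to 132353686, minus strand), had 17.6, 12.9 and 14 CPM in naive, 15.9, 14.6 and 15.0 CPM in vehicle and 14.1, 13.2 and 12.8 CPM in TD139 mice. TD139 lay just under vehicle without overlap, at -0.18 ± 0.14, and overlapped naive. Snhg12, which holds both snoRNA types (chromosome 4, 132308623 to 132311024, plus strand), had 48.1, 35.0 and 37.5 CPM in naive, 31.2, 35.4 and 39.7 CPM in vehicle and 29.0, 36.5 and 31.1 CPM in TD139 mice. All 3 groups overlapped, with -0.14 ± 0.14 for TD139 against vehicle and -0.32 ± 0.14 for TD139 against naive.

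Snhg11 went the other way. This host, best known from neurons (chromosome 2, 158375638 to 158386145, plus strand), had 860, 821 and 823 CPM in naive, 876, 585 and 923 CPM in vehicle and 1006, 916 and 978 CPM in TD139 mice. All TD139 mice lay above all naive mice, and vehicle mouse 3 lay among the TD139 mice. For what share of all genes TD139 lay above naive in this way was not counted. Against naive the log2 difference was 0.21 ± 0.15 (SE), and -0.10 ± 0.16 with transcript length and GC content corrected for. Vehicle mouse 2, the mouse with the high lens sum, was far below the other 8. The log2 difference between TD139 and vehicle was 0.28 ± 0.15 (SE), and 0.11 without vehicle mouse 2. Amacrine cell markers, another set of neuronal genes, summed to 980 to 1095 CPM in naive, 1132 to 1338 in vehicle and 1171 to 1285 in TD139 retinas, and ganglion cell markers to 898 to 986, 892 to 1075 and 849 to 963 CPM.

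Single mice weighed on the description. Naive mouse 1 was the highest of its group for all 9 genes, vehicle mouse 3 was the highest of its group for 7 and TD139 mouse 3 the lowest of its group for 7. Of the 3 host genes called lower in TD139 than in vehicle, none remained without vehicle mouse 3 or without TD139 mouse 3, where calls over all genes also fell from 5072 to 2526 and to 1917. Without TD139 mouse 2 only Zfas1 was called, and without naive mouse 2 only Gas5. Without vehicle mouse 2, Gas5 and Snhg9 remained. Directions were steadier than calls, since Gas5, Snhg8, Snhg9, Snhg1, Snhg3 and Zfas1 were lower in TD139 than in vehicle in all 20 alternative analyses. Against naive, none of the 3 calls remained when naive mouse 1, naive mouse 2, vehicle mouse 1, vehicle mouse 2, TD139 mouse 2 or TD139 mouse 3 was left out, where 0 to 420 genes in all were called in place of 775.

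The differences under TD139 also ran with transcript length. Over all tested genes, the median log2 difference between TD139 and vehicle was -0.50 for 697 genes with a longest transcript of up to 1000 bases, -0.34 for 2497 genes of 1000 to 2000 bases, -0.08 for 6124 genes of 2000 to 4000 bases and 0.26 for 5748 longer genes. Between vehicle and naive these medians were 0.06, 0.05, 0.00 and -0.05. By its longest transcript, Snhg9 (183 bases), Snhg3 (581), Snhg8 (776) and Snhg6 (816) belonged to the shortest class, where Snhg8 at -0.48 lay near the class median, Snhg9 at -0.96 lay below it and Snhg3 and Snhg6 lay above it. Snhg12 (1538 bases) lay above its class at -0.14. Zfas1 (2302), Gas5 (2556) and Snhg1 (2728) lay below the -0.08 of theirs, at -0.37, -0.39 and -0.34. This rests on the length used. By the transcripts linked to RefSeq, Zfas1 (738 bases), Snhg1 (605) and Snhg12 (606) would belong to the shortest class and lie above its -0.50. Snhg11 (5864 bases), at 0.28, stood at the median of the longest class.

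A per-mouse correction was made for the length and GC content of the longest transcript. After it, the log2 difference between TD139 and vehicle was -0.71 ± 0.30 (SE) for Snhg9, -0.32 ± 0.13 for Snhg8, -0.31 ± 0.09 for Gas5, -0.30 ± 0.14 for Snhg1 and -0.17 ± 0.14 for Zfas1. Snhg3 stood at -0.10, Snhg6 at 0.02, Snhg12 at 0.08 and Snhg11 at 0.01, so that the higher level of Snhg11 was gone. Gas5 alone remained below the adjusted threshold. The correction left a median of -0.20 in the shortest class and moved the median over all genes to 0.07 in this comparison and to -0.11 in vehicle against naive. The part of transcript length or of RNA quality in these differences was not tested.

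**Figure D3:**
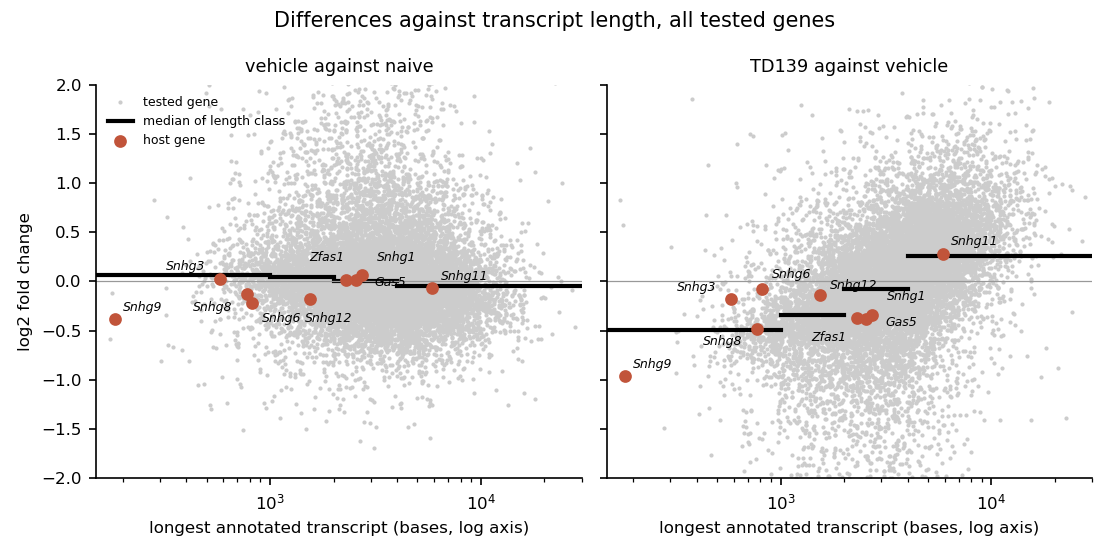
Log2 fold change of all tested genes with an annotated length (grey points) against the length of the longest annotated transcript on a log axis, for vehicle against naive and TD139 against vehicle, with the median of 4 length classes (black bars) and the 9 host genes (red). Genes beyond -2 or 2 lie outside the frame. In TD139 against vehicle the medians run from -0.50 in the shortest class to 0.26 in the longest. By this length Gas5, Zfas1 and Snhg1 lie below the median of their class. By their shorter transcripts linked to RefSeq, Zfas1 and Snhg1 would lie in the shortest class, above its median.

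Of the 5 tested neighbouring genes, taken by position, 2 fell and 1 rose in TD139 against vehicle, beside 16.2% of all tested genes called lower and 17.2% higher. Slc3a2, the heavy chain of an amino acid transporter whose start lies 106 bases from that of Snhg1 on the opposite strand, rose from 224 ± 11.3 CPM in naive to 328 ± 53.2 in vehicle (SD, n = 3; log2 fold change 0.55 ± 0.13, adjusted p = 0.0286, edgeR) and fell to 179 ± 19.3 under TD139 (-0.87 ± 0.13, adjusted p = 0.0050). Snhg1 itself stood at 0.06 ± 0.14 in the first of these comparisons and at -0.34 ± 0.14 in the second, and was called in neither. Rps2, a ribosomal protein gene that overlaps Snhg9 on the opposite strand, fell under TD139 by 0.74 ± 0.10 on the log2 scale against vehicle (adjusted p = 0.0050, edgeR). Zbtb37, which overlaps Gas5 on the opposite strand, rose against vehicle by 1.04 ± 0.27 (adjusted p = 0.0159, edgeR) with group means of 3.05 to 6.27 CPM. Slc3a2 lost its rise in vehicle without any 1 of the naive mice or vehicle mouse 3, and Zbtb37 its call with the length and GC correction or without vehicle mouse 3, TD139 mouse 2 or TD139 mouse 3. Znfx1, whose start lies 81 bases from that of Zfas1, and Rcc1, which overlaps Snhg3 on the same strand, did not pass the threshold (adjusted p = 0.468 and 0.70 against vehicle, edgeR). Mcmdc2, which overlaps Snhg6 on the opposite strand, had too few reads to be tested. Whether reads were counted by strand was not stated, so reads of Snhg9 and Rps2, Gas5 and Zbtb37, Zfas1 and Znfx1, and Snhg6 and Mcmdc2 may not be fully told apart, nor those of Snhg3 and Rcc1, which share a strand.

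Of 11 other noncoding hosts tested, Snhg5 fell in TD139 against vehicle and none rose, beside 16.2% of all tested genes called lower. Snhg5 had 24.9, 22.9 and 23.7 CPM in naive, 21.4, 22.7 and 29.2 CPM in vehicle and 16.6, 17.5 and 15.8 CPM in TD139 mice, all TD139 mice below the rest, with a log2 fold change of -0.55 ± 0.13 (adjusted p = 0.0121, edgeR), and -0.52 ± 0.13 against naive (adjusted p = 0.0498). The call against vehicle was lost without TD139 mouse 3. The call against naive was kept in only 5 of 20 alternatives, being lost with RLE or library-size scaling, no filter, the 2 groups alone, the replicate block, either run alone and the length and GC correction, and without any 1 mouse other than naive mouse 3 and vehicle mouse 3. The log2 difference from vehicle was below 0 for 9 of the 11, with a median of -0.29, and -0.16 with the length and GC correction or -0.20 without vehicle mouse 3. Their median longest transcript was 1988 bases, in the class with a median of -0.34 over all genes. Rian, an imprinted host of C/D snoRNAs, stood at 0.30 ± 0.11 (adjusted p = 0.0579) and Snhg20 at -0.19 ± 0.16 (adjusted p = 0.372). In vehicle against naive none of the 11 passed, with a median of -0.05.

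Protein-coding hosts carry snoRNAs in the introns of genes for ribosomal and translation proteins. In TD139 against vehicle 18 of the 30 tested fell and none rose, beside 16.2% of all tested genes called lower, with a median of -0.48, and 13 of the 30 are ribosomal protein genes. With the length and GC correction 13 fell and the median was -0.24, and 11 fell without TD139 mouse 2 or without TD139 mouse 3. Rpl4, a protein of the large subunit, fell by 0.44 ± 0.11 (adjusted p = 0.0126, edgeR) from 722 ± 41.2 to 534 ± 46.8 CPM, a call lost with the correction or without vehicle mouse 3, TD139 mouse 2 or TD139 mouse 3. Eef2, the elongation factor of translocation, stood at -0.11 ± 0.08 (adjusted p = 0.339), and Ncl, the nucleolar protein nucleolin, at -0.05 ± 0.09 (adjusted p = 0.676). Rpl10 and Tpt1 rose in vehicle against naive, by 0.47 ± 0.11 (adjusted p = 0.0282) and 0.50 ± 0.11 (adjusted p = 0.0269, edgeR), beside 4.91% of all tested genes. In TD139 against naive 8 of the 30 fell, beside 2.38% of all tested genes. With only the 2 groups, the replicate block or the length and GC correction, 0 of them fell.

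Of the mRNAs known to share the pyrimidine start, most of those for ribosomal proteins fell under TD139. Of 77 ribosomal protein genes tested, 71 fell and none rose in TD139 against vehicle, beside 16.2% of all tested genes called lower. All 77 were below 0, and the median was -0.66, against -0.02 over all tested genes, at a median transcript length of 1106 bases. With the length and GC correction 49 fell and the median was -0.36, and 46 fell without TD139 mouse 2 or without TD139 mouse 3. Rpl13a, itself a snoRNA host, fell from 442 ± 37.3 to 272 ± 16.0 CPM (-0.70 ± 0.12, adjusted p = 0.00568, edgeR), and Rpl8 from 451 ± 31.4 to 314 ± 22.6 CPM (-0.52 ± 0.12, adjusted p = 0.0115). The call of Rpl8 was lost with the correction or without TD139 mouse 2 or TD139 mouse 3, and that of Rpl13a was kept in all 20 alternatives. Of 17 further mRNAs of this kind 10 fell and none rose, beside the same 16.2% of all tested genes. Among the 10 were Eef1a1, the main elongation factor (-0.56 ± 0.10, adjusted p = 0.00588), and Rack1, a protein of the small ribosomal subunit listed as Gnb2l1 (-0.52 ± 0.10, adjusted p = 0.00652). The median of the 17 was -0.37 and 3 lay above 0. With the length and GC correction 5 fell and the median was -0.15, and the count was 6 without vehicle mouse 3, TD139 mouse 2 or TD139 mouse 3. In vehicle against naive, Rpl15 and Rpl10 of the ribosomal protein genes rose, as did Eef1a1 and Tpt1 of the 17, beside 4.91% of all tested genes. In TD139 against naive 37 of the 77 and 3 of the 17, among them Rack1 and Fau, fell, beside 2.38% of all tested genes. With only the 2 groups, the replicate block or the length and GC correction, 0 of either list fell. Over all listed genes, 7 calls in vehicle against naive became 0 without any 1 of the naive mice or vehicle mouse 3, 1 without vehicle mouse 1, 3 without vehicle mouse 2 and 4 without TD139 mouse 3. The 48 calls in TD139 against naive became 0 without naive mouse 1, naive mouse 2, vehicle mouse 2, TD139 mouse 2 or TD139 mouse 3, and 24 without vehicle mouse 1, while the 100 in TD139 against vehicle became 60 without TD139 mouse 2 and 60 without TD139 mouse 3.

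**Figure D4:**
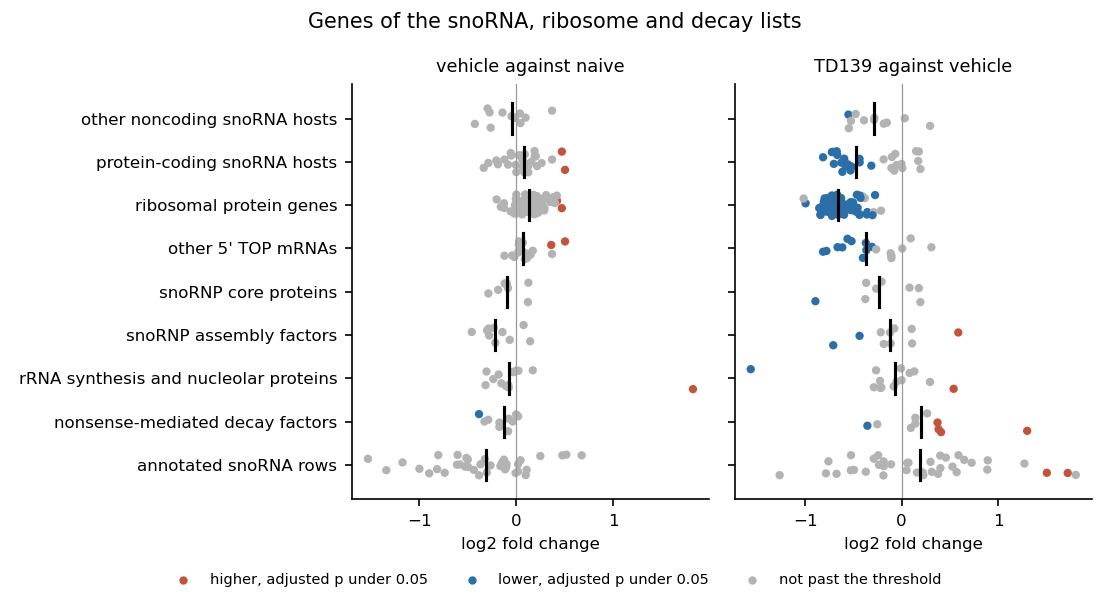
Log2 fold change of each tested gene of 9 gene lists in vehicle against naive and TD139 against vehicle. Points are genes, red where called higher and blue where called lower at an adjusted p under 0.05, and the black bar is the median of the list. In TD139 against vehicle 71 of 77 ribosomal protein genes, 18 of 30 protein-coding hosts and 1 of 11 other noncoding hosts are called lower, beside 16.2% of all tested genes. The lists were not tested against each other.

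Of the 18 genes for proteins that bind and build snoRNA particles, 3 fell and 1 rose in TD139 against vehicle, where 16.2% of all tested genes were called lower. Among the 8 core proteins, Nhp2, an H/ACA core protein, fell in TD139 against vehicle from 25.6 ± 4.55 to 13.8 ± 0.592 CPM (-0.89 ± 0.15, adjusted p = 0.00568, edgeR), and the other 7 did not pass, including the pseudouridine synthase Dkc1 (0.19 ± 0.11, adjusted p = 0.182) and the C/D proteins Nop56 (0.18 ± 0.10, adjusted p = 0.173) and Nop58 (0.08 ± 0.13, adjusted p = 0.634). Of 10 assembly factors, Naf1, which loads H/ACA particles, rose by 0.59 ± 0.19 (adjusted p = 0.0321), and Pih1d1 of the R2TP complex and Znhit3 fell, by 0.71 ± 0.11 (adjusted p = 0.0050) and 0.44 ± 0.13 (adjusted p = 0.0236). Nolc1 and Ruvbl2 did not pass against vehicle (0.10 ± 0.09, adjusted p = 0.366, and -0.12 ± 0.09, adjusted p = 0.311). The calls of Nhp2 and Pih1d1 against vehicle were kept in all 20 alternatives. That of Naf1 was lost in 7, with the replicate block, with run 2 alone and without any 1 of the vehicle mice, TD139 mouse 2 or TD139 mouse 3. That of Znhit3 was lost in 6, with run 2 alone, with the length and GC correction and without vehicle mouse 2, vehicle mouse 3, TD139 mouse 2 or TD139 mouse 3. None of the 18 genes of both lists passed in vehicle against naive, where edgeR's adjusted p was above 0.05 for each. In TD139 against naive Nhp2, Pih1d1, Znhit3 and Ruvbl2 fell, beside 2.38% of all tested genes called lower. These calls were lost in 9, 8, 14 and 9 of the 20 alternatives. Each was lost with only the 2 groups, the replicate block and the length and GC correction.

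Of 10 factors of nonsense-mediated decay, 4 rose and 1 fell in TD139 against vehicle, beside 17.2% of all tested genes called higher and 16.2% lower. Without TD139 mouse 2 only Smg1 rose, and without TD139 mouse 3 or vehicle mouse 3 only Smg1 and Upf3b, while none fell in any of the 3. The kinase Smg1, which phosphorylates Upf1, rose from 88.1 ± 16.1 to 217 ± 44.5 CPM (1.30 ± 0.19, adjusted p = 0.0050, edgeR), and Upf2 and Upf3b rose by 0.38 ± 0.12 (adjusted p = 0.0279) and 0.41 ± 0.10 (adjusted p = 0.0115). Smg9, a partner of Smg1, fell by 0.36 ± 0.11 (adjusted p = 0.0271). The helicase Upf1 stood at 0.14 ± 0.09 (adjusted p = 0.214) and Smg5 at 0.10 ± 0.08 (adjusted p = 0.379). The median longest transcript of the 10 genes was 4533 bases, within the class whose median over all genes was 0.26, and with the length and GC correction 3 rose and none fell. In vehicle against naive Upf3b alone passed, at -0.39 ± 0.10 (adjusted p = 0.0384), and in TD139 against naive Smg1 alone, at 1.01 ± 0.19 (adjusted p = 0.0406). The first of these calls was lost in 10 of the 20 alternatives, among them each that left out a naive or a vehicle mouse, and the second in 8, among them the replicate block. Whether decay of the host transcripts differed was not measured here.

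The mean standardised log2 CPM of the 9 host genes was taken as their pattern across the 9 mice. Each gene is a part of this mean and was chosen with its differences between these groups known, so Pearson's r with it, 0.71 for Snhg3 to 0.92 for Snhg9 and -0.23 for Snhg11, says nothing of whether the genes vary together. Of 13084 other genes that averaged 50 counts or more, those with the most similar pattern were Taf11 (r = 0.98), a subunit of the initiation factor TFIID, Psma3 (0.97), a proteasome subunit, Zcrb1 (0.97), a protein of the minor spliceosome, Tfpt (0.97) and the antisense gene Gm15417 (0.97). These values describe 9 libraries in 3 groups that share depth, scaling and the length pattern above. Of the 5, Zcrb1 and Tfpt passed in TD139 against vehicle (-0.39, adjusted p = 0.0492, and -0.44, adjusted p = 0.0326, edgeR) and Taf11, Psma3 and Gm15417 did not (-0.22, -0.18 and -0.36, adjusted p = 0.161, 0.180 and 0.0638). The calls of Zcrb1 and Tfpt were lost in 12 and 6 of the 20 alternatives, both without vehicle mouse 3 and without any 1 of the TD139 mice.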

How the data were processed

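Retinal RNA of 9 BALB/cJ mice was sequenced as stranded poly(A) libraries with single reads, each library in 2 runs. The authors deposited raw counts per gene for each run, made with BaseSpace RNA Express on build mm10. The annotation and the strand setting of the counting are not given in the sources used here. The 2 runs of a mouse were summed, so that the mouse was the replicate (n = 3 a group). Groups, doses and times came from the sample labels.

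Counts were fitted with edgeR 4.0.16 (R 4.3.3): filterByExpr, TMM scaling, and the robust quasi-likelihood test with all 3 groups in 1 fit. A gene was called at a Benjamini-Hochberg adjusted p under 0.05 over all 15196 tested genes. Alternatives were DESeq2 1.42.0, limma 3.58.1 (voom with quality weights), RLE or library-size scaling, other filters, 2-group fits, single runs, a spline (4 degrees of freedom) on transcript length and GC content, and leaving out each mouse. The fit was tested on simulated data.

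The 9 genes, the gene lists and the rules for naming genes were chosen with earlier results of these data known. Of each list the 3 genes with most reads are named, with all called genes where 5 or fewer were called, and the 5 genes most correlated with the 9. The name rule for ribosomal protein genes also matched 10 S6 kinase genes, which were left out after their names were seen. Some genes that the rules would name are not reported here. Symbols were matched to GENCODE M21 for 23036 of 23420 rows, 1259 by an older symbol, and sequences came from RefSeq and GENCODE. Counting error alone is covered by the floor of 3 counts.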

Additional observations from a re-analysis of the deposited data

How the results depend on the processing

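No host gene was called in vehicle against naive under any of the 20 alternatives. In TD139 against vehicle 3 were called by TMM scaling, 5 with library size alone, 4 with limma voom, 2 with the replicate block, 1 with run 1 alone, 2 with run 2 alone and 1 with the length and GC correction, and 0 to 3 when a mouse was left out. In TD139 against naive 3 were called by TMM scaling, 2 with RLE scaling, 1 with library size alone, 2 without a filter, 0 in the fit of only the 2 groups, 0 with the replicate block, 1 with run 1 alone, 2 with run 2 alone and 0 with the length and GC correction, and 0 to 3 when a mouse was left out. Same-numbered mice did not deviate together (r from -0.26 to 0.28), so the numbers were not taken as pairs. Genes of the listed sets called numbered 7, 100 and 48 in vehicle against naive, TD139 against vehicle and TD139 against naive. The first count became 14 with DESeq2, 19 with limma voom, 4 with the replicate block, 4 with run 1 alone and 18 with the length and GC correction. The third became 90 with DESeq2, 112 with limma voom, and 0 with only the 2 groups, the replicate block or the length and GC correction. Leaving out a mouse gave 0 to 10, 60 to 103 and 0 to 85. Over all genes, calls rose from 1185 to 2418 with DESeq2, 3420 with limma voom and 3056 with the length and GC correction in vehicle against naive, and in TD139 against naive went from 775 to 2586, 5478 and 0, and to 0 with the replicate block and 1 with only the 2 groups. Of 540 single log2 fold changes of the host genes recomputed, 536 moved by less than the spread between mice, 4 by more, and no called one changed sign. The causes were not tested.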

Other observations

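Of 11 other long noncoding RNAs tested that host no snoRNA of the lists, 4 rose and 1 fell in TD139 against vehicle, beside 17.2% of all tested genes called higher and 16.2% lower, with a median log2 fold change of 0.39. Malat1, a nuclear RNA of splicing speckles, rose from 829 ± 161 to 1151 ± 139 CPM (SD, n = 3; log2 fold change 0.47 ± 0.16, adjusted p = 0.0384, edgeR), and Meg3, an imprinted RNA, rose by 0.45 ± 0.15 (adjusted p = 0.0433). Tug1, first described in the retina, rose by 0.69 ± 0.14 (adjusted p = 0.0074) and Oip5os1, listed as 1700020I14Rik, by 1.39 ± 0.26 (adjusted p = 0.0070). Neat1, which builds paraspeckles, rose in vehicle against naive from 46.7 ± 6.59 to 82.2 ± 22.2 CPM (0.81 ± 0.21, adjusted p = 0.0429) and fell under TD139 to 44.7 ± 8.37 CPM (-0.88 ± 0.21, adjusted p = 0.0126). Vax2os stood at 0.09 ± 0.31 (adjusted p = 0.843). The median longest transcript of the 11 was 6983 bases, and with the length and GC correction 2 rose, 1 fell and the median was 0.09. The count that rose was also 2 with library size alone, in the fit of only the 2 groups and without naive mouse 2, vehicle mouse 2, TD139 mouse 2 or TD139 mouse 3, and none fell without TD139 mouse 2 or TD139 mouse 3. Tug1 and Oip5os1 kept their calls in all 20 alternatives, while Malat1 lost its call in 8 and Meg3 in 11. The rise of Neat1 in vehicle was lost in 8, among them each that left out a naive mouse.

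Among 14 genes of ribosomal RNA synthesis and the nucleolus, Myc, which drives ribosome production, rose in vehicle against naive from 0.923 ± 0.280 to 3.27 ± 1.16 CPM (1.82 ± 0.39, adjusted p = 0.0249, edgeR) and fell under TD139 to 1.10 ± 0.369 CPM (-1.57 ± 0.38, adjusted p = 0.0124). The rise was lost with run 1 alone and without any 1 of the naive mice, vehicle mouse 1 or vehicle mouse 3, and the fall without vehicle mouse 3, TD139 mouse 2 or TD139 mouse 3. Polr1a, the largest subunit of RNA polymerase I, rose under TD139 by 0.54 ± 0.12 (adjusted p = 0.0089), a call lost in 1 of 20 alternatives, the length and GC correction. Npm1 and Ubtf did not pass against vehicle (-0.26 ± 0.10, adjusted p = 0.0704, and -0.01 ± 0.13, adjusted p = 0.969). Of 38 snoRNA rows tested, which in libraries of polyadenylated RNA do not measure the level of the snoRNAs, Snora28 and Snora34 had higher counts under TD139, beside 17.2% of all tested genes called higher, by 1.51 ± 0.50 (adjusted p = 0.0382) and 1.72 ± 0.49 (adjusted p = 0.0212), at 0.899 ± 0.366 and 1.32 ± 0.711 CPM, and neither lies in the 9 hosts. Both calls were lost with run 1 alone and without vehicle mouse 2, vehicle mouse 3 or TD139 mouse 3, and that of Snora28 also without a filter, with the replicate block, with the correction and without naive mouse 2 or TD139 mouse 2. No other snoRNA row passed in a comparison.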
